A study of Arabidopsis thaliana with 22 samples.

Results

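The non-polysomal (NP) RNA of *pab2 pab8* seedlings was compared with the NP RNA of wild-type seedlings. NP RNA is the RNA from the top of a sucrose gradient, that is, free ribonucleoprotein and RNA bound by single ribosomes, as opposed to the polysomal (PL) RNA, which carries several ribosomes. The comparison uses 8 of the 22 arrays of the series, 4 *pab2 pab8* NP arrays (replicates 1 to 4) and 4 wild-type (WT) NP arrays (replicates 1 to 4), chosen by the genotype and the fraction in the labels and not by any measured value. The other 14 arrays are 8 PL arrays of the same replicates and 6 arrays of total RNA (T, replicates 1 to 3 of each genotype), which are used here only beside the NP values. The *pab2 pab8* seedlings carried the T-DNA insertions SALK_026293 in *PAB2* and SALK_022160 in *PAB8*, both in the Columbia-0 (Col-0) ecotype, and the wild type carried neither. Both genotypes were grown side by side in continuous light at 22°C, on Murashige and Skoog agar with 1% sucrose, and their aerial tissue was taken 10 to 12 days after germination. The mutant is 1 double-mutant line, it still carries an intact *PAB4*, and it is slightly dwarfed. The replicates were separate cultures, each grown at its own time.

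Poly(A) binding proteins coat the poly(A) tail at the 3′ end of mRNAs. Through contacts with the factors bound at the 5′ cap they are thought to aid ribosome recruitment and recycling, and they also take part in the control of deadenylation and mRNA decay. In *Arabidopsis* the class II genes *PAB2*, *PAB4* and *PAB8* encode most of the protein in seedlings. An mRNA is found off polysomes when it is not being initiated often, when it is stored, or when it is on the way to decay, so the amount of an mRNA in the NP fraction depends both on how much of the mRNA there is and on how it is divided between the fractions. The deposited values are relative to the RNA hybridised, so a shift of all mRNAs between the fractions would not be seen, and a change in NP is a change relative to the other NP mRNAs of the same array.

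The median log2 signal of the NP arrays was 4.96, 4.68, 4.95 and 4.95 in *pab2 pab8*, and 4.91, 4.98, 4.95 and 4.92 in WT. The *pab2 pab8* NP array of replicate 2 was the low one. Over the 22746 probe sets, NP arrays correlated with each other at 0.954 to 0.99, and genotype was not the main order among them, since *pab2 pab8* replicate 3 was most like WT replicate 2 and *pab2 pab8* replicate 4 most like WT replicate 4. Deviations from the genotype means were shared between equal replicate numbers (correlations across probe sets of 0.382, 0.305, 0.286 and 0.364). Some unequal numbers also did so, *pab2 pab8* 2 with WT 3 at 0.28, *pab2 pab8* 3 with WT 2 at 0.173 and *pab2 pab8* 1 with WT 4 at 0.118, so replicates 2 and 3 were hardly told apart. The numbers were taken to pair the cultures, and a fit with the replicate number as a block is given wherever it changes a call. The markers of the labelled aerial tissue were uneven: the light-harvesting genes *LHCB4.1* (12.66 in *pab2 pab8* NP and 12.46 in WT NP) and *LHCB4.2* (11.84 and 11.77) were bright, while *RCA* (4.06 and 4.17) and *LHCA4* (3.46 and 3.80) lay below the array medians. Of the root markers, *PYK10*, an abundant ER body β-glucosidase (8.36 in *pab2 pab8* NP and 8.84 in WT NP), and *AT5G66390* (5.89 and 5.41) lay above the array medians, and *EXPA7* (4.07 and 4.07) and *EXPA18* (4.03 and 4.14) below. The mean over 6 nuclear photosynthesis probe sets lay between 7.40 and 7.66 in *pab2 pab8* NP and between 7.18 and 7.54 in WT NP, and that over 4 root marker probe sets between 5.43 and 5.65 and between 5.58 and 5.68. The number of arrays, and not a read depth, limits the precision here. The values carry no detection call, so a log2 change against a group with dim signals is a difference of signals and can understate the change in RNA.

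Few probe sets passed the test without the block. At an FDR below 0.05 and a change of at least 2-fold, 10 probe sets were higher in *pab2 pab8* NP (0.044% of 22746) and 6 were lower (0.0264%), and by the FDR alone 11 were higher (0.0484%) and 6 lower (0.0264%). With the replicate block the 2-fold calls were 46 higher (0.202%) and 38 lower (0.167%), and the FDR calls 84 higher (0.369%) and 62 lower (0.273%). All 16 calls made without the block were among the 84 2-fold calls made with it. Changes of 2-fold or more, whatever their FDR, were 59 higher and 41 lower, and the median change over all probe sets was -0.05 on the log2 scale. In 363 probe sets (1.6%) all 4 *pab2 pab8* NP arrays lay above all 4 WT NP arrays, and in 684 (3.01%) they lay below. At an unadjusted limma p below 0.05, 687 were higher and 1137 lower as deposited. With each array centred on its median these counts were 1091 and 777, and without replicate 2 of both genotypes 929 and 650. The median change was 0.00 in both. The excess on the lower side at this p thus did not hold in either fit. Leaving out 1 replicate left between 0 and 4 calls higher and 4 calls lower in each case. *PAB2*, *PAB8*, *AT1G67865* and *AT1G66100* stayed called in each of these fits, and the other 12 reached a highest FDR between 0.128 (*LEA7*) and 0.39 (*ARP9*). With the block, 20 of the 84 calls held in each of them.

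**Figure D1:**
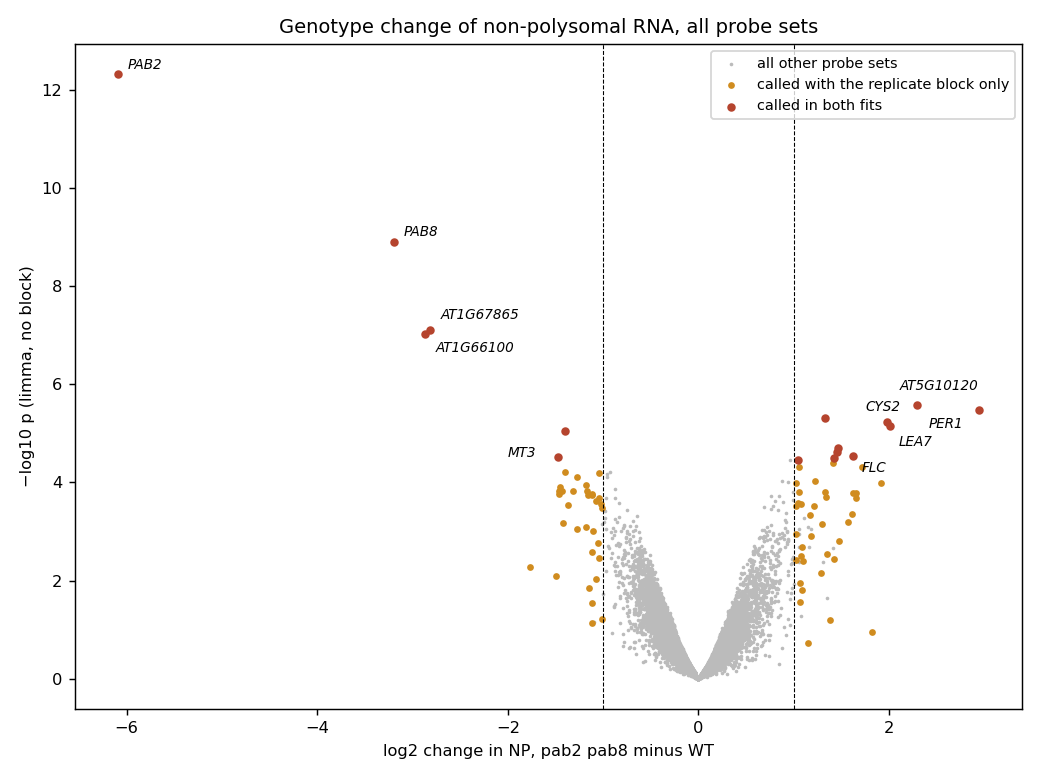
Change of each of the 22746 probe sets in non-polysomal RNA, *pab2 pab8* minus WT (log2, x axis), against the unadjusted p of the fit without the replicate block (−log10, y axis), 4 arrays of each genotype. *PAB2*, at -6.09, *PAB8*, at -3.19, *AT1G66100* and *AT1G67865* stand far from the rest on the lower side, and *PER1*, at 2.95, is the farthest of the 10 calls on the higher side.

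The mutated genes were measured first. *PAB2* read 4.59, 5.06, 5.29 and 4.62 in *pab2 pab8* NP, against 10.68, 11.11, 10.96 and 11.18 in WT NP (4.89 ± 0.35 and 10.98 ± 0.22, SD, n = 4 each). The arrays of the genotypes stood far apart in each pair (log2 change -6.09, SE 0.20, FDR 1.07e-08), and the mutant signals lay near the array medians. *PAB8* read 5.53, 4.57, 4.94 and 4.92 in *pab2 pab8* NP, against 8.04, 8.24, 8.13 and 8.32 in WT NP (-3.19, SE 0.20, FDR 1.41e-05). Both genes were also low in PL RNA (-5.13 for *PAB2* and -3.47 for *PAB8*) and in total RNA (-5.74 and -3.73). Where the probes lie relative to the insertions is not given in the sources used here.

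*PAB4*, the remaining class II gene, was also lower off polysomes. It read 7.85, 7.13, 7.29 and 8.32 in *pab2 pab8* NP, against 9.50, 8.88, 8.63 and 9.41 in WT NP, and the groups did not overlap (-1.46, SE 0.28). This change missed the threshold without the block (FDR 0.0879) and passed it with the block (FDR 0.00185), also in each fit without 1 replicate (highest FDR 0.0195). All 4 pairs moved the same way, by -1.64, -1.75, -1.35 and -1.09. In PL RNA the same pairs differed by -0.63, -0.60, -0.21 and 0.36, and in total RNA by -0.40, -0.71 and -0.48, both smaller than in NP. The NP change exceeded the PL change by -1.19 (SE 0.17, FDR 0.0142). Whether *PAB2* or *PAB8* RNA in the WT samples adds to the signal of the *PAB4* probe set was not tested.

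**Figure D2:**
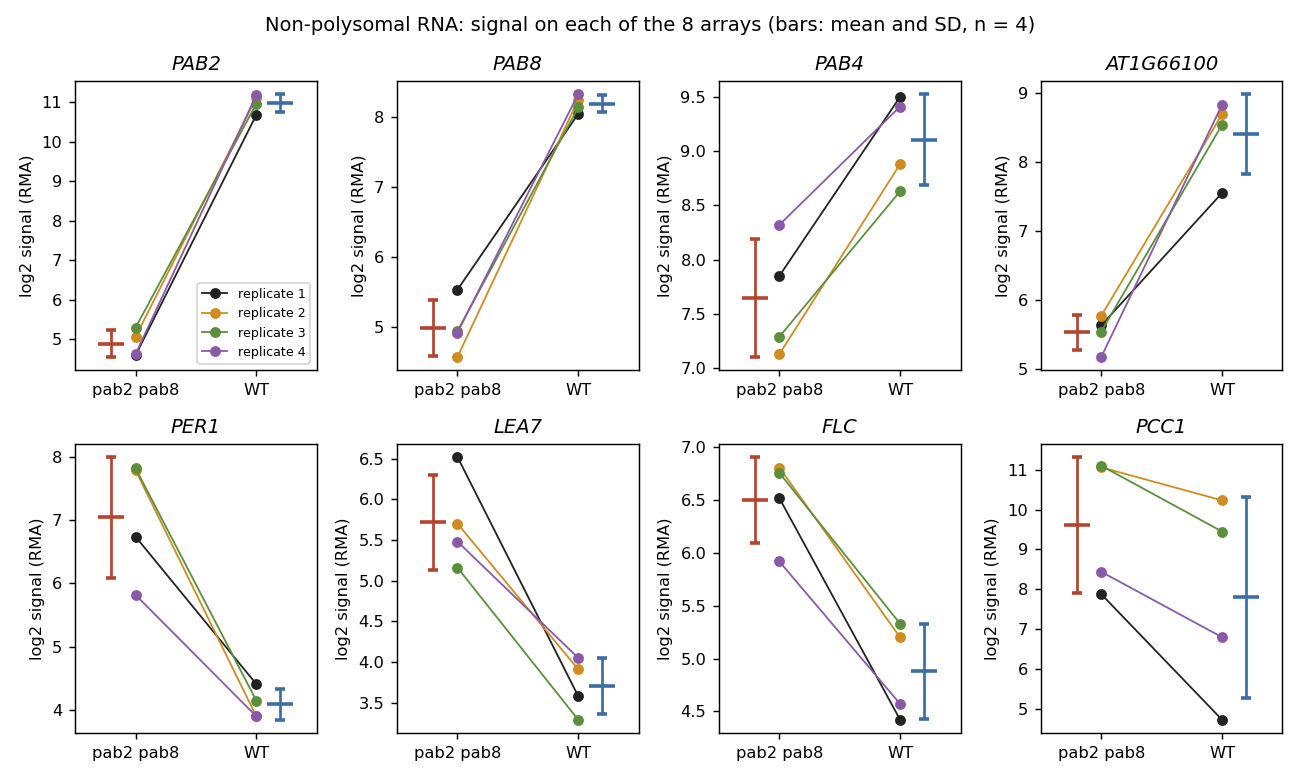
Log2 signal of each of the 8 NP arrays for 8 genes, 1 panel per gene with its own y axis, *pab2 pab8* left of WT, lines joining the arrays of 1 replicate and bars for the mean and SD of 4. For *PAB2*, *PAB8*, *PAB4* and *AT1G66100* all lines run upward to WT, for *PER1*, *LEA7* and *FLC* they run downward with no overlap of the groups, and for *PCC1* the groups overlap although all 4 lines run downward.

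Genes of late seed maturation made up 4 of the 8 named genes called higher in *pab2 pab8* NP. Of these 8, 5 were named only through the study's own table of changed genes, *PER1*, *LEA7* and *CYS2* among them. The share of 4 in 8 is therefore not independent of these samples. *PER1*, a 1-cysteine peroxiredoxin of seeds, read 6.74, 7.79, 7.82 and 5.82 in *pab2 pab8* NP, against 4.41, 3.90, 4.15 and 3.90 in WT NP. The lowest mutant array thus lay well above the highest wild-type array, and the change was 2.95 (SE 0.37, FDR 0.0125). *LEA7*, a late embryogenesis abundant (LEA) protein of the kind that protects drying cells, read 6.52, 5.70, 5.16 and 5.48 in *pab2 pab8* NP, against 3.58, 3.91, 3.29 and 4.05 in WT NP (2.01, SE 0.27, FDR 0.0182). *CYS2*, a phytocystatin that inhibits cysteine proteases, read 7.03, 7.90, 7.47 and 6.39 in *pab2 pab8* NP, against 5.27, 5.19, 5.18 and 5.22 in WT NP (1.98, SE 0.26, FDR 0.0166). The wild-type arrays of *CYS2* lay close together while the mutant arrays spread widely, with replicate 4 lowest, as it was for *PER1*. *AT1G04560*, an AWPM-19-like membrane protein, read 5.42, 5.62, 4.84 and 4.72 in *pab2 pab8* NP, against 3.89, 3.87, 3.41 and 3.54 in WT NP (1.47, SE 0.22, FDR 0.0404).

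These genes belong to a wider set that moved in part. Of 12 probe sets on the seed maturation list, 3 rose at the FDR without the block and none fell, and 6 rose and 1 fell with it. Over all probe sets, 0.0484% rose without the block and 0.369% with it. The median change of the list was 0.76, beside -0.05 over all probe sets. Of the 12, 10 were above 0 (83.3%), beside 40.8% of all probe sets. The list is not independent of these samples, since 5 of its probe sets could be named only through the study's own table of changed genes; over the other 7 the median was 0.56, with 1 that rose without the block, and 2 that rose and 1 that fell with it. The member that fell was *DELTA-VPE*, a vacuolar processing enzyme known from the seed coat, described below. *AT3G54940*, a papain-family protease, read 5.78, 5.85, 4.55 and 5.06 in *pab2 pab8* NP, against 4.39, 3.51, 3.47 and 3.40 in WT NP (1.62, FDR 0.0879 without and 0.00318 with the block). The list also held members with little change in NP, such as *BGLU19*, a β-glucosidase, at 0.16, and *TIP3;1*, a tonoplast aquaporin of seeds, at -0.15 (12.81 in *pab2 pab8* NP and 12.96 in WT NP).

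On the list of LEA proteins, 34 probe sets were measured, of which 28 were above 0 (82.4%), with a median of 0.26. Over all 22746 probe sets, 40.8% were above 0 and the median was -0.05. 1 LEA probe set rose without the block (*LEA7*) and 6 with it, beside 0.0484% and 0.369% of all probe sets. None fell in either fit. Among the members past the FDR only with the block, *AtLEA4-1* read 5.99, 6.40, 5.25 and 4.89 in *pab2 pab8* NP, against 4.08, 4.01, 3.71 and 3.86 in WT NP (1.72, FDR 0.0551 without and 0.00281 with the block). *ECP63* read 5.48, 6.57, 5.60 and 4.63 in *pab2 pab8* NP, against 4.02, 3.88, 4.00 and 3.75 in WT NP (1.66, FDR 0.0879 and 0.011). *LEA18* read 5.50, 5.01, 4.57 and 3.64 in *pab2 pab8* NP, against 2.94, 3.26, 2.78 and 3.15 in WT NP (1.65, FDR 0.0879 and 0.0162). In these LEA genes the groups did not overlap, and replicate 4 of the mutant was the lowest. The groups did not overlap in 9 of the 34 LEA probe sets, beside 1047 of all 22746. *AT3G02480* overlapped between the genotypes, with 8.06, 7.25, 6.62 and 6.50 in *pab2 pab8* NP and 6.70, 5.75, 5.52 and 4.79 in WT NP, but its pairs differed evenly, which took its FDR to 0.00185 with the block from 0.326 without (change 1.42). Of the 34, 5 were named only through the study's table, *LEA7* and *ECP63* among them.

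Seed storage proteins and oil body proteins are the other abundant products of the maturing seed. None of the 7 seed storage probe sets passed the FDR with or without the block, and their median was 0.40. *CRU3*, a cruciferin storage globulin, read 4.07, 7.13, 5.48 and 4.27 in *pab2 pab8* NP, against 4.13, 3.97, 3.54 and 3.93 in WT NP (1.35, SE 0.52, FDR 0.539), and 1 mutant array, replicate 2, held much of that difference. Of 5 oil body probe sets, only *OLEO2*, an oleosin, passed with the block (0.98, FDR 0.324 without and 0.0172 with), and the median was 0.01. Over all probe sets, 0.369% rose with the block. Over the array means, the seed storage list lay between 3.39 and 4.03 in *pab2 pab8* NP and between 3.17 and 3.44 in WT NP, and the oil body list between 3.63 and 4.19 and between 3.63 and 4.01. *BAN*, the seed coat marker measured, lay between 3.38 and 3.57 in *pab2 pab8* NP and between 3.27 and 4.81 in WT NP. In bulk tissue, more cells that express such a gene and more RNA per cell cannot be told apart.

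**Figure D3:**
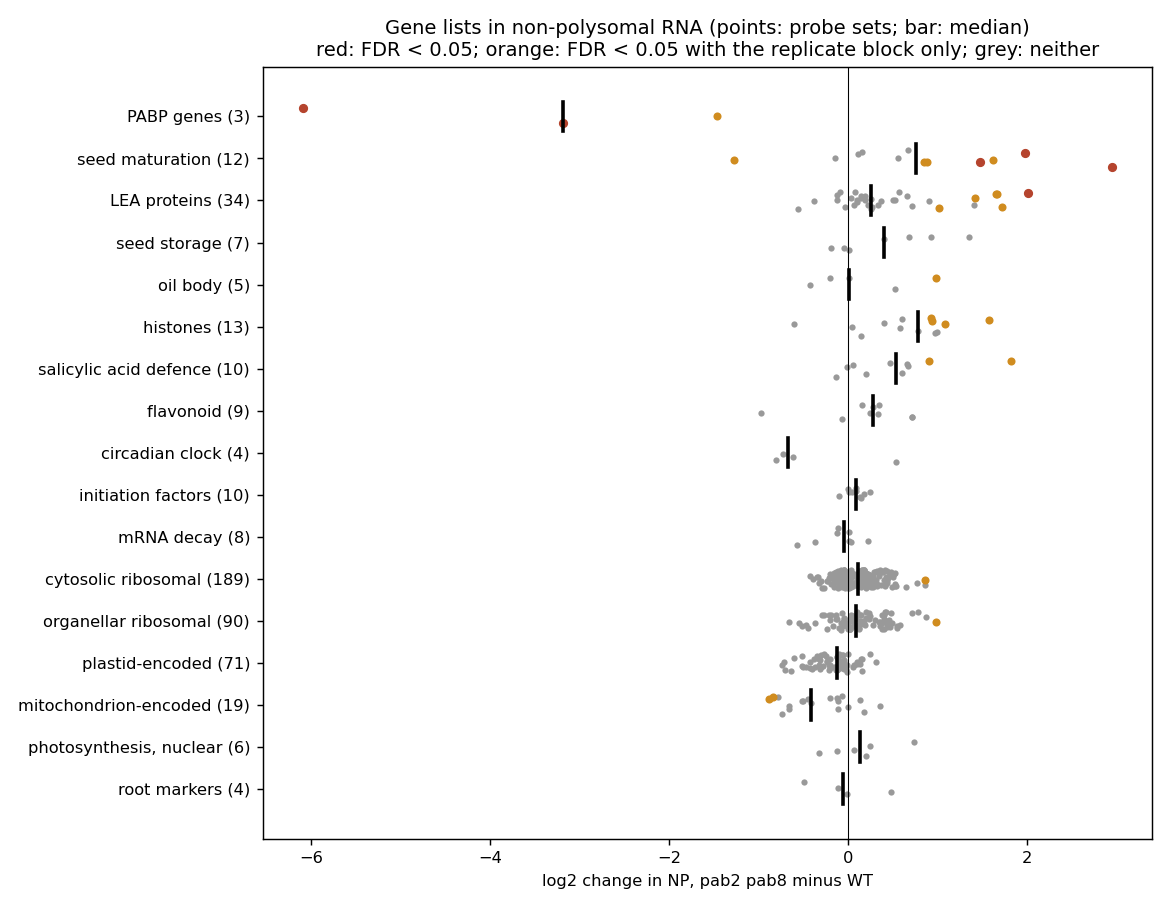
Change in non-polysomal RNA, *pab2 pab8* minus WT (log2, x axis), of the measured members of the gene lists, 1 row per list and 1 point per probe set, with the list median as a bar and colour for members past the FDR without and with the block. The seed maturation and histone rows lie mostly to the right of 0 (medians 0.76 and 0.78), and the cytosolic ribosomal protein row is narrow around 0.11.

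Among the other genes that were higher were a pair of near neighbours on chromosome 5. *AT5G10120*, which encodes a transcription factor of the EIN3 family of ethylene signalling, read 5.48, 5.58, 5.17 and 4.08 in *pab2 pab8* NP, against 2.56, 2.73, 2.95 and 2.87 in WT NP (2.30, SE 0.28, FDR 0.0119). These wild-type signals lay below the lower quartile of each WT NP array (3.51 to 3.71). *FLC*, the MADS-box repressor of flowering, read 6.52, 6.81, 6.76 and 5.92 in *pab2 pab8* NP, against 4.42, 5.20, 5.33 and 4.57 in WT NP (1.62, SE 0.25, FDR 0.0472). Neither gene overlapped between the genotypes. In the TAIR10.1 gene table a single protein-coding gene, *AT5G10130*, lies between them, and its NP change was -0.32. *AT5G10120* and *FLC* were also higher in PL RNA (2.59 and 1.60) and in total RNA (1.58 and 1.39).

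*ARP9*, an actin-related protein, read 6.68, 6.41, 6.71 and 6.85 in *pab2 pab8* NP, against 5.91, 4.88, 4.97 and 5.03 in WT NP (1.46, SE 0.22, FDR 0.0464), with WT replicate 1 above the other wild-type arrays. *AT1G43590*, annotated as a pseudogene, read 6.47, 5.84, 5.85 and 5.49 in *pab2 pab8* NP, against 4.64, 4.77, 4.51 and 4.05 in WT NP (1.42, SE 0.22, FDR 0.0472). Each lay above the wild type in all 4 pairs. *AT1G73630* passed the FDR just short of the 2-fold limit (0.96, SE 0.15, FDR 0.0472). Of the 10 calls on the higher side, 2 were probe sets with no gene name in the table used, 253245_at (1.33, SE 0.17, FDR 0.0158) and 249606_at (1.05, SE 0.17, FDR 0.0472).

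Apart from the *PAB* genes, the largest falls were in *AT1G66100* and *AT1G67865*. *AT1G66100* encodes a thionin, a small cysteine-rich antimicrobial peptide, and read 5.63, 5.77, 5.54 and 5.17 in *pab2 pab8* NP, against 7.55, 8.69, 8.54 and 8.83 in WT NP. The mutant arrays were close together and below all wild-type arrays (-2.87, SE 0.26, FDR 5.37e-04). *AT1G67865* read 5.74, 5.14, 4.90 and 5.22 in *pab2 pab8* NP, against 7.66, 8.76, 8.07 and 7.79 in WT NP (-2.82, SE 0.25, FDR 5.37e-04). *AT1G67860*, the next gene in the annotation with no protein-coding gene between them, read 6.63, 6.67, 6.24 and 5.71 in *pab2 pab8* NP, against 7.33, 8.37, 7.81 and 7.24 in WT NP (-1.37, FDR 0.104 without and 0.007 with the block).

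Another thionin, *THI2.2*, read 8.14, 5.33, 6.06 and 6.07 in *pab2 pab8* NP, against 8.85, 7.33, 7.66 and 8.86 in WT NP (-1.77, FDR 0.361 without and 0.0122 with the block). Its replicate 1 of the mutant overlapped the wild type. *MT3*, a metallothionein that binds metals and one of the brightest genes named here, read 10.71, 11.45, 11.13 and 10.46 in *pab2 pab8* NP, against 12.11, 12.72, 12.58 and 12.21 in WT NP (-1.47, SE 0.23, FDR 0.0472). The sixth call on the lower side was 266720_s_at, which has no gene name in the table used (-1.40, SE 0.19, FDR 0.02).

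Outside the seed genes, the histone list held the most members past the FDR with the block. Of 13 histone probe sets, 12 were above 0 and the median was 0.78. None passed the FDR without the block while 4 rose with it, beside 0.369% of all probe sets. In 9 of the 13 the genotypes did not overlap, beside 1047 of all 22746 probe sets, of which 40.8% were above 0. *AT3G53650*, a histone H2B, read 6.05, 4.28, 4.82 and 6.01 in *pab2 pab8* NP, against 3.81, 3.50, 3.54 and 4.00 in WT NP (1.57, FDR 0.172 without and 0.01 with the block). *HTB2*, another H2B, read 7.32, 6.74, 6.32 and 7.30 in *pab2 pab8* NP, against 5.84, 5.80, 5.83 and 5.88 in WT NP (1.08, FDR 0.103 and 0.0267). The other members past the FDR with the block were *AT1G06760*, a linker histone H1 (0.94, FDR 0.0359), and *HTB1* (0.93, FDR 0.0343).

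The histone mRNAs differed among themselves and between kinds of RNA. *HTA9*, an H2A variant, lay below 0 at -0.60 (FDR 0.131 with the block), and *HTB4*, at 0.15, and *HIS1-3*, at 0.04, were near 0. The list median was 0.25 in PL RNA and 0.39 in total RNA. The array means of the list lay between 6.88 and 7.26 in *pab2 pab8* NP and between 6.21 and 6.65 in WT NP. Of 4 cell cycle genes, whose mRNAs accompany histone synthesis in dividing cells, none passed the FDR in NP. All 4 were above 0 there, with a median of 0.25. In total RNA 2 of the 4 rose at the FDR, beside 555 of all 22746 probe sets. These are 4 of the 16 cell cycle genes written down. Histone genes of 1 class can be close copies of each other, so a probe set may report more than 1 of them, which was not tested. Only 13 of the 41 histone genes written down had a probe set with a name.

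Among genes of salicylic acid defence, *PCC1* and *WRKY70* varied more between replicates than between genotypes. *PCC1*, a pathogen-responsive gene also under circadian control, read 7.88, 11.06, 11.10 and 8.44 in *pab2 pab8* NP, against 4.73, 10.23, 9.45 and 6.80 in WT NP. The range over the wild-type arrays was larger than the change of 1.82 (SE 1.07), and the groups overlapped. The pairs nevertheless all went up, by 3.15, 0.83, 1.66 and 1.64, with an FDR of 0.705 without and 0.0148 with the block, and the highest FDR without 1 replicate was 0.103. *WRKY70*, a transcription factor of this defence, had the same form with 5.44, 7.42, 7.65 and 6.42 in *pab2 pab8* NP and 4.82, 6.72, 6.38 and 5.42 in WT NP (0.90, FDR 0.672 and 0.0328). Of the 10 probe sets on this list, 2 rose with the block and none without, and the median was 0.53. Over all 22746 probe sets, 84 rose with the block and the median was -0.05. Of the 10, 9 were named only through the study's table. *AT3G22240*, separated from *PCC1* by a single protein-coding gene, read 10.45, 12.95, 13.15 and 11.18 in *pab2 pab8* NP, against 8.53, 12.49, 12.20 and 9.92 in WT NP (1.15, FDR 0.759 and 0.0343).

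Some further genes passed only with the block. *ESM1*, which modifies the hydrolysis of glucosinolates, read 9.89, 10.09, 9.97 and 10.59 in *pab2 pab8* NP, against 7.32, 9.18, 8.88 and 8.73 in WT NP (1.61, FDR 0.136 and 0.0128). *AT3G19550* read 6.58, 6.83, 7.04 and 6.69 in *pab2 pab8* NP, against 3.84, 5.77, 5.39 and 4.45 in WT NP (1.92, FDR 0.0764 and 0.00318). In both the spread was in the wild type, whose replicate 1 was lowest. On the lower side, *AT1G23130* read 8.00, 8.68, 8.65 and 7.93 in *pab2 pab8* NP, against 9.16, 10.28, 10.15 and 9.49 in WT NP (-1.46, FDR 0.0867 and 0.00163). *MRU1* read 6.78, 6.97, 7.94 and 7.08 in *pab2 pab8* NP, against 8.32, 8.81, 9.13 and 8.31 in WT NP (-1.45, FDR 0.0867 and 0.00185). *ADS1*, a fatty acid desaturase, and *ASN1*, an asparagine synthetase, each fell by 1.12 with the block (FDR 0.0202 and 0.0343), and *TI1*, a trypsin inhibitor, fell by 1.01 (FDR 0.0296).

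The translation apparatus itself moved little. Of 189 probe sets for cytosolic ribosomal proteins, 126 were above 0 (66.7%, beside 40.8% of all 22746 probe sets), and the median was 0.11. None passed the FDR without the block, and with it 1 rose, *AT4G17390* (0.86, FDR 0.0268). Of 90 probe sets for nuclear-encoded ribosomal proteins of the organelles, the median was 0.08, none passed without the block and 1 rose with it, *AT4G17560* (0.98, FDR 0.0148). Over all 22746 probe sets, 84 rose with the block (0.369%). Of 10 initiation factor probe sets none passed in either fit, and their changes lay between -0.10 and 0.25. Of 8 mRNA decay factors none passed in either fit (median -0.05), with *LSM1A*, of the decapping-activator ring, at -0.57 and *UPF3*, of nonsense-mediated decay, at -0.37. Many ribosomal protein genes have close paralogs, so their probe sets may not separate them.

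The lists of transcripts made in the organelles had medians below 0. Of 71 plastid-encoded probe sets, 12 were above 0 (16.9%, beside 40.8% of all 22746 probe sets) and none passed the FDR. Their medians were -0.12 in NP, -0.13 in PL and 0.68 in total RNA. Of 19 mitochondrion-encoded probe sets, 4 were above 0 (21.1%) and the median was -0.41. None of the 19 passed without the block. With it 2 fell, beside 0.273% of all probe sets, both for *nad1*, a subunit of respiratory complex I (-0.84, FDR 0.046, and -0.88, FDR 0.0439). The other *nad1* probe sets did not pass, at -0.78, -0.41, -0.20, 0.00 and 0.18. The brighter of the 2 that fell read 6.48, 6.49, 6.95 and 6.47 in *pab2 pab8* NP, against 6.88, 7.41, 7.81 and 7.63 in WT NP, with an overlap of the groups. In PL RNA the mitochondrial median was -0.05, and in total RNA -0.17. In total RNA 4 of the 19 fell at the FDR, beside 330 of all 22746 probe sets. The 2 *nad1* probe sets that fell in NP with the block read -0.95 and -0.60 there.

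In all, 23 of the 26 lists had no member past the FDR without the block, and 17 had none with it. Of 4 clock genes none passed, although *CCA1* and *LHY*, the morning MYB factors, read -0.80 and -0.62 in NP, and *GI* -0.73; the fourth, *PRR3*, read 0.54. Of 9 flavonoid genes none passed with or without the block (median 0.28). The medians were -0.08 for 9 chitinases, 0.12 for 3 jasmonate and wound genes, -0.16 for 4 heat shock genes, 0.09 for 3 hypoxia genes, -0.25 for 3 glucosinolate genes, -0.10 for 2 ABA and stress genes and 0.04 for 3 reserve mobilisation genes, with no member past the FDR with or without the block. With the block and median centring, 1 flavonoid gene rose and 1 fell, 1 clock gene fell and 1 chitinase rose. In that fit 258 of all 22746 probe sets rose and 103 fell. The medians were also small for 6 nuclear photosynthesis probe sets (0.13) and 4 root markers (-0.06). A list of which 2 to 4 members were measured cannot speak for its pathway.

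Most of the NP calls went the same way in the other kinds of RNA from these genotypes. The 10 probe sets called higher in NP had medians of 1.55 in NP, 1.84 in PL and 1.54 in total RNA, with 10 of 10 above 0 in PL and 10 of 10 in T. The 6 called lower had medians of -2.85, -2.53 and -1.66, with 6 of 6 below 0 in PL and 4 of 6 in T. The exceptions in T were *AT1G66100*, at 0.14, and 266720_s_at, at 0.39. With the block, the 46 called higher had medians of 1.33, 1.23 and 0.62 (46 of 46 above 0 in PL, 38 in T), and the 38 called lower had medians of -1.18, -1.17 and -0.20 (38 below 0 in PL, 24 in T). The NP and PL values of a replicate share their plants. Across all 22746 probe sets, which are not independent replicates, the NP change correlated with the PL change at 0.562 (Pearson) and 0.386 (Spearman) and with the T change at 0.272 and 0.191.

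**Figure D4:**
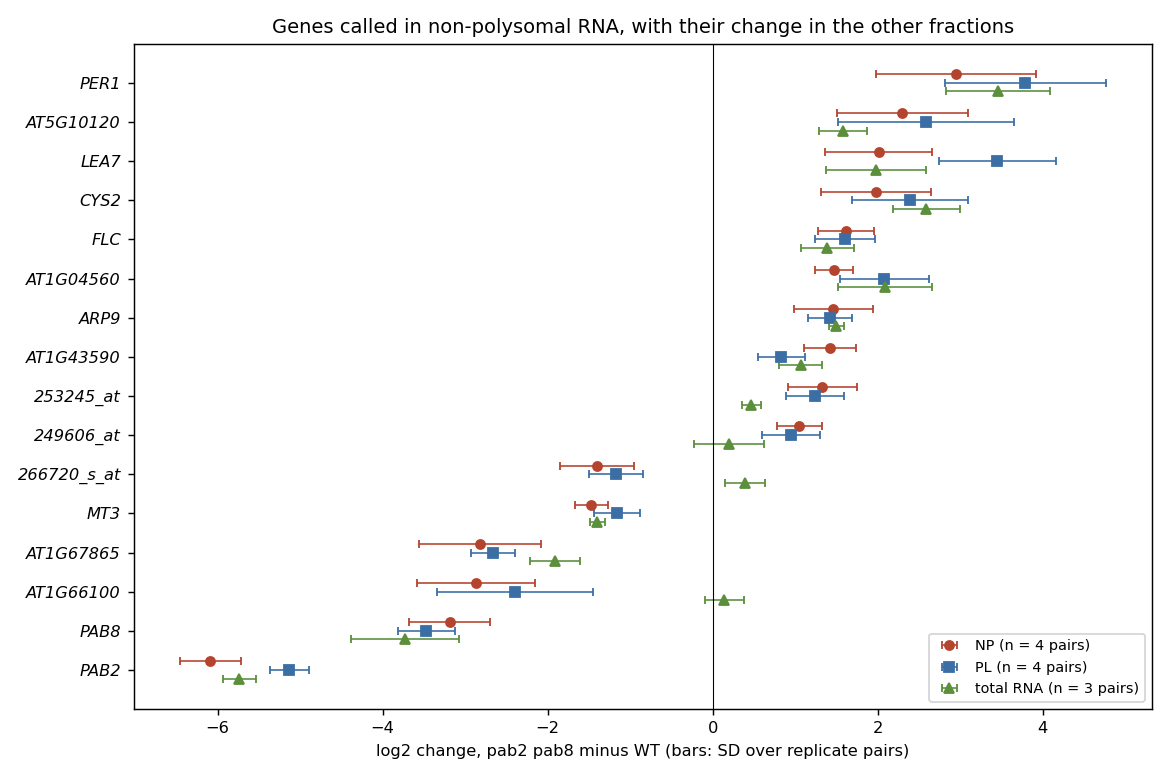
Change, *pab2 pab8* minus WT (log2), of the probe sets called in NP, in NP, PL and total RNA, with bars for the SD over replicate pairs (4, 4 and 3). All but *AT1G66100* and 266720_s_at keep their side of 0 in the 3 kinds of RNA, and *AT1G66100* lies at -2.87 in NP, -2.40 in PL and 0.14 in total RNA.

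The view from total RNA was less even. Of 22746 probe sets, 99 were called higher (0.435%) and 23 lower (0.101%) in *pab2 pab8* total RNA at an FDR below 0.05 and 2-fold. Of the 99, whose T median was 1.30, the NP median was 0.46, 8 passed the NP FDR the same way without the block and 21 with it, 1 passed the opposite way with it, and 14 had the opposite sign. Of the 23, whose T median was -1.27, the NP median was -0.56, 4 passed without the block and 6 with it, and 6 had the opposite sign. The flavonoid list, with a T median of 1.44 against 0.28 in NP, the clock list, with 0.55 against -0.67, and the plastid-encoded list, with 0.68 against -0.12, were among those that read differently in both kinds of RNA. In the clock list *CCA1* (1.02 in T and -0.80 in NP) and *LHY* (0.85 and -0.62) changed sign. *GI* (-0.82 and -0.73) and *PRR3* (0.24 and 0.54) did not. Of the 71 plastid-encoded probe sets, 3 rose at the FDR in T and none fell. Over all 22746 probe sets, 555 rose and 330 fell in T by the same rule.

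Whether the genotype change differed between NP and PL RNA was tested on the paired NP minus PL differences. This is the paper's translation state (PL over NP) on the same arrays, with its sign turned. The paper already reports more ribosome loading in the mutant for seed storage, LEA and *PAB4* mRNAs. *ECP63*, *CRU3*, *CRA1* and *PAB4* were also named only through the study's table of changed genes, so their differences are not a separate result. At an FDR below 0.05, 1 probe set moved more in the higher direction in NP (0.0044%) and 6 in the lower (0.0264%). For *ECP63* (-2.79, SE 0.38, FDR 0.00866), *CRU3* (-1.94, SE 0.24, FDR 0.0075), *AT3G53040*, a LEA protein (-1.72, SE 0.22, FDR 0.0075), *M17* (-1.66, SE 0.26, FDR 0.0399) and the cruciferin *CRA1* (-1.31, SE 0.18, FDR 0.00866), the NP change was positive but smaller than the PL change. The mean NP signals of *CRA1* (3.13 in *pab2 pab8* and 2.73 in WT) lay below the lower quartile of each NP array (3.36 to 3.71). That of *M17* in WT NP (2.42, beside 3.83 in *pab2 pab8* NP) did so too. At such dim signals the NP change can be understated, and its part in these differences was not tested. *AT3G53040*, for instance, read 4.84, 5.10, 4.38 and 4.04 in *pab2 pab8* NP and 3.92, 3.77, 3.28 and 3.75 in WT NP, a change of 0.91, beside 2.63 in PL. *PAB4*, as above, was the sixth. *PIFI*, a chloroplast protein, was the 1 in the higher direction, with 10.63, 10.75, 10.69 and 10.44 in *pab2 pab8* NP and 9.81, 9.81, 9.73 and 10.12 in WT NP, a change of 0.76, beside -0.20 in PL (difference 0.95, SE 0.15, FDR 0.0418). Each of these differences lost its FDR in at least 1 fit that left out a replicate, the fit without replicate 3 holding none, and a fit that did not pair NP with PL held none (754 at an unadjusted p below 0.05).

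The difference of the NP and T changes was tested in the same way on replicates 1 to 3, a comparison added after the values were seen. At an FDR below 0.05, 3 probe sets lay higher in NP than in T (0.0132%) and 5 lower (0.022%). Here equal numbers did not deviate together: across probe sets, NP and T deviations of the same genotype and number correlated at -0.106, -0.0375 and 0.132 in *pab2 pab8* and at -0.0437, -0.147 and 0.0758 in WT, whereas NP and PL deviations did so at 0.419 to 0.587 in *pab2 pab8* and at 0.548 to 0.625 in WT. A fit of the NP and T arrays without that pairing was therefore added, which found 7 higher and 25 lower. It took all 8 NP arrays and the 6 T arrays, so it differs from the paired test also in holding NP replicate 4. Without replicate 2 or without replicate 3 the paired test held 0.

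*AT1G66100*, the thionin above, passed with and without the pairing. Its pairs differed by -1.92, -2.92, -3.00 and -3.66 in NP and by -1.72, -1.92, -2.17 and -3.79 in PL, but by 0.41, 0.05 and -0.04 in T (NP minus T -2.75, SE 0.27, FDR 0.00811, and 0.00137 without the pairing). Its RNA was thus low in both gradient fractions of the mutant and not in its total RNA. *DELTA-VPE* went opposite ways, with 7.90, 7.65, 7.37 and 7.69 in *pab2 pab8* NP against 8.96, 8.61, 8.59 and 9.54 in WT NP, but 5.10, 5.94 and 5.76 in *pab2 pab8* T against 3.96, 4.14 and 4.41 in WT T (-2.51, SE 0.34, FDR 0.0436, and 0.00236 without the pairing). *COR27*, a cold-regulated gene linked to the clock, was the reverse, with 6.94, 7.33, 7.49 and 7.49 in *pab2 pab8* NP against 5.96, 6.63, 6.10 and 5.66 in WT NP, and with T pairs of -1.07, -0.74 and -0.94 (1.94, SE 0.25, FDR 0.0345, and 0.00322).

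The other named genes past this test were *CRA1* (-2.87, FDR 0.0345), *BGLU19* (-2.26, FDR 0.0449) and the plastid-encoded *rpl22* (-2.85, FDR 0.00811), which were higher in T of the mutant with little change in NP, and *KCS8*, of fatty acid elongation, with 0.72 in NP and -1.16 in T (1.84, FDR 0.0345). All 4 also passed without the pairing, at an FDR of 0.00182, 0.00322, 0.0339 and 0.00137. The NP signals of *CRA1* were dim in both genotypes (means of 3.13 and 2.73), so its NP change can be understated. Whether total RNA and gradient RNA of equal numbers came from the same harvest is not given in the sources used here, and its part in these differences was not tested.

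**Figure D5:**
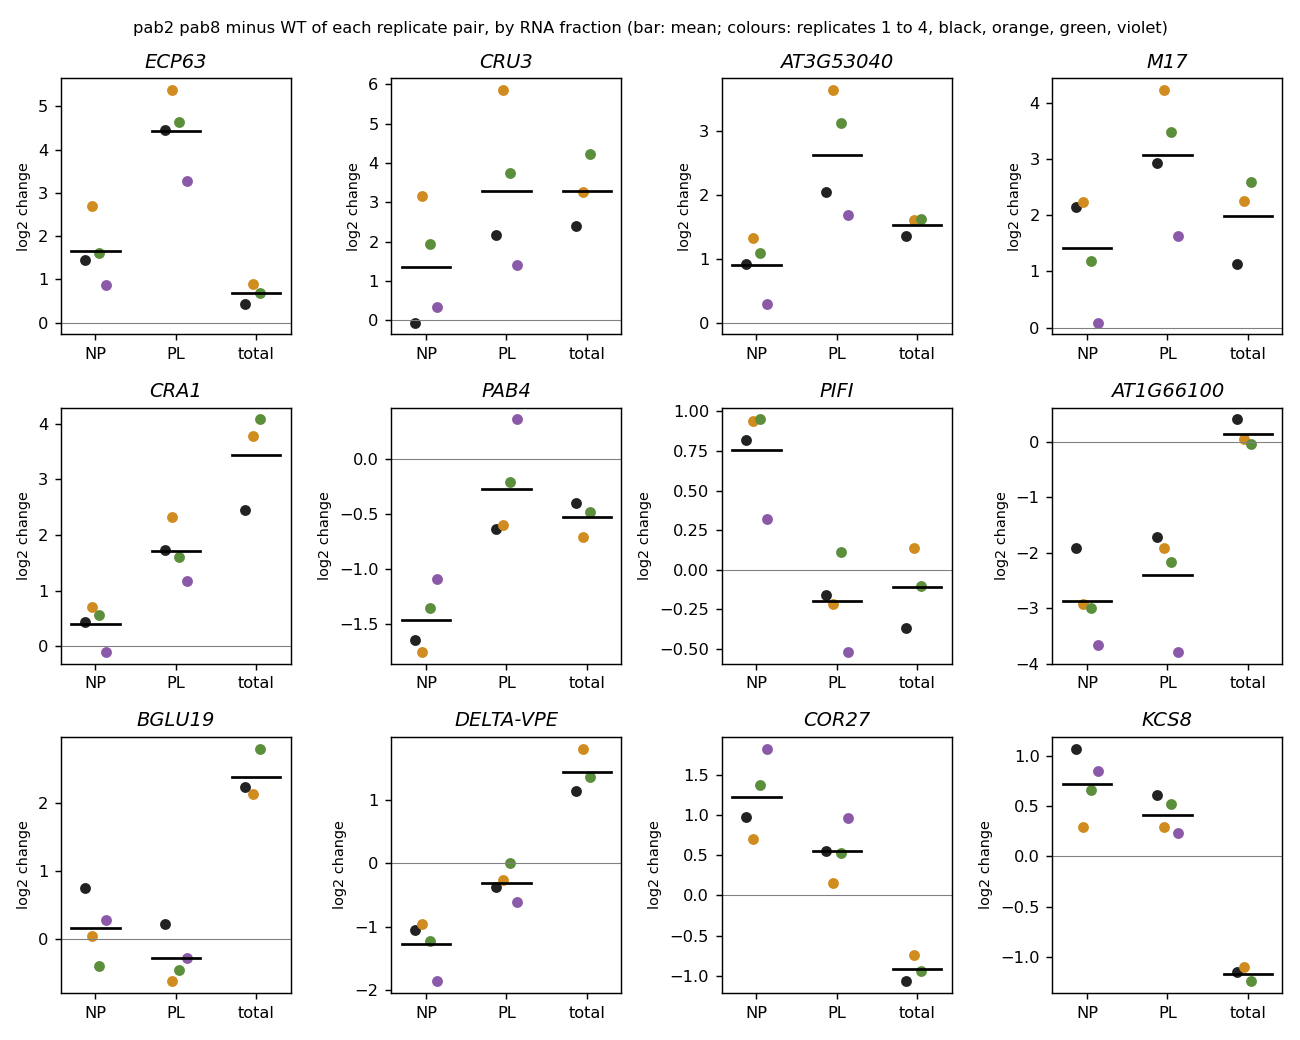
Change within each replicate pair, *pab2 pab8* minus WT (log2), in NP (4 pairs), PL (4 pairs) and total RNA (3 pairs), for genes whose changes differed between the kinds of RNA. *AT1G66100* lies between -3.66 and -1.92 in NP and near 0 in total RNA, and *DELTA-VPE* is below 0 in NP and above 0 in total RNA.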

How the data were processed

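RNA of aerial seedling tissue was hybridised to Affymetrix ATH1 arrays. The authors made the values with RMA and deposited them on the log2 scale (the submitters' processing notes name affy, RMA and MAS5, with versions not given in the sources used here). No global adjustment between fractions was made, and the arrays do not share 1 distribution. No Affymetrix control probe set was among the 22746 rows (0), and 0 columns lacked a sample. A deposited table of translation states was not used here.

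The values were taken as deposited. The 8 NP arrays were fitted with limma 3.58.1 (R 4.3.3) on genotype alone, with Benjamini-Hochberg adjustment (FDR) over 22746 probe sets. A call needs an FDR below 0.05 and a 2-fold change; list members were counted by the FDR alone. Every FDR in the text is from limma. The fit was tested on simulated data. NP minus PL and NP minus T were fitted on differences within genotype and replicate number. Alternatives were median centring, quantile normalization, a replicate block, a variance trend, array weights, the brighter probe sets, a 1.5-fold limit, a fit of 16 arrays and leaving out replicates. Python 3.11.15 with numpy 2.4.6, pandas 2.3.3 and matplotlib 3.10.9 made summaries and figures.

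The replicate numbers pair the samples because, per the labels, the genotypes were grown next to each other and the replicates at different times, and equal numbers deviated together (r = 0.382, 0.305, 0.286 and 0.364). 13513 probe sets were named from the platform annotation, 416 from the study's table of changed genes and 84 from its ribosomal protein table; 548 carry several genes and 8185 have no name here. Gene order came from the TAIR10.1 table. Named genes were *PAB2*, *PAB4* and *PAB8*, the 12 largest called changes per direction with 1 gene and 4 of 4 pairs in 1 direction, 3 members a list by smallest p, and the 5 largest NP minus PL differences per direction. Others, among them the genes that passed only with the block, those of the NP minus T test, *AT1G73630* and the unnamed probe sets, were chosen after their values were seen. The genes, lists and tests were chosen with earlier results of these data known. Promoter sequences were not used here.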

Additional observations from a re-analysis of the deposited data

Results flagged for a closer look

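The median log2 signal of the *pab2 pab8* NP array of replicate 2 was 4.68, far below those of the other 3 mutant NP arrays (4.95 and 4.96). Among the WT NP arrays, *ARP9* read 5.91 in replicate 1, far above the other 3 (4.88 to 5.03). Such a distance arises by chance in about 1 in 20 groups, and 30 groups of 4 were searched.

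The genotype change differed between NP and PL RNA for 7 probe sets by the test of the difference. NP minus PL was -2.79 for *ECP63*, -1.94 for *CRU3*, -1.72 for *AT3G53040*, -1.66 for *M17*, -1.31 for *CRA1*, -1.19 for *PAB4* and 0.95 for *PIFI*. None of these passed without replicate 3 or in the fit that did not pair the fractions. *ECP63*, *CRU3*, *CRA1* and *PAB4* were named only through the study's table of changed genes.

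It differed between NP and total RNA for 8 probe sets by the paired test, which held none without replicate 2 or without replicate 3. NP minus T was -2.87 for *CRA1*, -2.85 for *rpl22*, -2.75 for *AT1G66100*, -2.51 for *DELTA-VPE*, -2.26 for *BGLU19*, 2.00 for 251438_s_at (a probe set of several genes), 1.94 for *COR27* and 1.84 for *KCS8*.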

How the results depend on the processing

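No named probe set past the FDR, without or with the block, changed its direction under any alternative. The excess among all probe sets at an unadjusted limma p below 0.05 did turn. It went from 687 higher and 1137 lower to 1091 and 777 with centring. Without replicate 2 of both genotypes it was 929 and 650. NP calls (higher, lower; 10 and 6 as reported) were 16 and 5 with median centring, 18 and 15 with a variance trend, 31 and 33 with array weights, 22 and 21 in a fit of the NP and PL arrays, 46 and 38 with the replicate block, 67 and 31 with the replicate block and centring, which was added after seeing the data, 4 and 5 without *pab2 pab8* replicate 2, and 0 to 4 and 4 to 4 without 1 replicate of both genotypes. By the FDR alone (11 and 6), they were 17 and 5, 19 and 17, 52 and 45, 48 and 51, 84 and 62, 258 and 103, 4 and 5, and 0 to 4 and 4 to 4. Quantile normalization (10 and 6), the brighter probe sets (10 and 6) and the 1.5-fold limit (11 and 6) stayed close. Of the 17 probe sets past the FDR, all 17 passed with the replicate block (of 146), 16 with centring (of 22) and 14 with quantile normalization, *MT3* missing in both and *ARP9* and *FLC* in the last; *AT1G04560* missed in the fit of the NP and PL arrays. The 2-fold calls with the block were 16 to 57 higher and 9 to 55 lower without 1 replicate. With the block and centring, 8 histone, 4 cytosolic and 4 organellar ribosomal and 1 seed storage probe sets rose, and 4 mitochondrion-encoded ones fell. With centring the median over all probe sets was 0.00. The list medians were 0.81 for seed maturation, 0.32 for LEA proteins, 0.84 for histones, -0.06 for plastid-encoded and -0.36 for mitochondrion-encoded transcripts. The shares above 0 are of the values as deposited.

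NP minus PL (1 and 6) gave 3 and 8 with centring, 2 and 7 with quantile normalization, 0 and 6 with the replicate block, 0 and 0 without pairing the fractions, and 0 to 0 and 0 to 8 without 1 replicate. NP minus T (3 and 5), added after seeing the data, gave 4 and 4 with centring, 3 and 2 with quantile normalization, 8 and 23 with the replicate block, 7 and 25 without pairing NP and T, and 0 to 9 and 0 to 37 without 1 replicate. The motif description of promoters was not run. The number of arrays limits what small changes can be called; the cause of these shifts was not tested.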

Other observations

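Within a genotype, *PCC1* in the wild type shows how the replicate numbers run through the gradient fractions and not through total RNA. It read 4.73, 10.23 and 9.45 in WT NP and 4.61, 10.58 and 10.30 in WT PL for replicates 1 to 3, but 9.28, 8.57 and 9.86 in WT total RNA. In *pab2 pab8* it read 7.88, 11.06 and 11.10 in NP, 8.05, 11.78 and 12.03 in PL, and 10.75, 10.65 and 10.38 in total RNA. The replicate that was low in both fractions was thus not low in total RNA in either genotype.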
